A study of Rattus norvegicus with 2 samples.

Results

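Vasopressin (Avp), oxytocin (Oxt), corticotropin-releasing hormone (Crh) and urocortin (Ucn) and 4 of their receptor genes, Avpr1a, Oxtr, Crhr1 and Crhr2, were compared between the male and the female nucleus of the solitary tract (NTS). The 8 genes were chosen by name, as 4 ligand and 4 receptor genes, with earlier results of these data known. All 8 were among the 16581 genes named on the array, with 11 probes in all. The tissue was the NTS of 9-week-old spontaneously hypertensive rats (SHR), an inbred strain that develops high blood pressure, cut from 1.0 mm in front of to 0.5 mm behind the calamus scriptorius. The labels name no treatment and no mutant allele, and both groups share strain, age and tissue. The male group was 1 pool and the female group 1 pool, each of RNA from 5 rats, 100 ng from each, and each pool was read on 1 Agilent array. There are no replicates, so no difference was tested and the variation between animals is unknown.

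Vasopressin and oxytocin are short, closely related peptides made mainly by hypothalamic neurons. Those of the paraventricular nucleus send axons to the NTS, where vasopressin acts through the V1a receptor and oxytocin through its own receptor to adjust the baroreflex, feeding and gut reflexes. CRH starts the pituitary-adrenal stress response and is also made in the brainstem, for example by neurons of the inferior olive, and urocortin is its relative, best known from the Edinger-Westphal nucleus. CRH acts mainly through the receptor encoded by Crhr1, whereas urocortin binds the receptors of both Crhr1 and Crhr2. The vasopressin V1a and oxytocin receptors signal mainly through Gq and phospholipase C, and both CRH receptors through Gs and cyclic AMP.

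The 250 bases before the transcript start are shown for 4 genes: the neighbouring genes Oxt and Avp, whose values were alike on the arrays, and Ucn and the CRH-binding protein gene Crhbp, whose values were lower on the female array. They are RefSeq sequences of the rat assembly GRCr8, from another strain (BN/NHsdMcwi) than the one measured, printed 5′ to 3′ on the strand of the gene. Entries were matched for 7 of the 8 genes, all but Crh. Capitals mark matches on either strand to TGACG, the core of the cyclic AMP response element, to its full form TGACGTCA, which holds that core on both strands, to the nuclear receptor half-site AGGTCA or to TATAAA.
Oxt, chr3:138235504-138235753, plus strand: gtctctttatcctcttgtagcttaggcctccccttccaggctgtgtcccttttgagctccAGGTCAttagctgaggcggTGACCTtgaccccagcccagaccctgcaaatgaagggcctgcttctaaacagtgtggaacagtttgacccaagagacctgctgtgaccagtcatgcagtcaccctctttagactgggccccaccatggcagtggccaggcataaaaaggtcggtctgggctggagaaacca
Avp, chr3:138248523-138248772, minus strand: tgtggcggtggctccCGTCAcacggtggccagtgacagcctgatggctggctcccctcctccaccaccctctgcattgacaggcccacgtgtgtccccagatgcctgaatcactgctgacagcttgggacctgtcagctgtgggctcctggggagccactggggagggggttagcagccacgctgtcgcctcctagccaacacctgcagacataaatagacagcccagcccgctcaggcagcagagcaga
Ucn, chr6:30957836-30958085, plus strand: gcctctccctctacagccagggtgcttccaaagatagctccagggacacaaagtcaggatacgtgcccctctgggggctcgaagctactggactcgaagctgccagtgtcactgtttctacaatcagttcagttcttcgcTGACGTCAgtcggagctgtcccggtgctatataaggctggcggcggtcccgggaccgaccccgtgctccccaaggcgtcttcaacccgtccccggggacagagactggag
Crhbp, chr2:28439447-28439696, minus strand: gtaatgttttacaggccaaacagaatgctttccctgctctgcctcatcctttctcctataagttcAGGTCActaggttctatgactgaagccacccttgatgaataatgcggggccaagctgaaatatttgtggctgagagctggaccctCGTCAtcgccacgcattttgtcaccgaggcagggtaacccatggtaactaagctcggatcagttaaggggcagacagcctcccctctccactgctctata
The Ucn window held the full element TGACGTCA, from 110 to 103 bases before the start, and none of the other 6 genes with an entry did. Of 33469 RefSeq promoter windows of that length, 1.59% held TGACGTCA and 18.2% held TGACG. The Oxt window held 2 half-sites, AGGTCA from 190 to 185 and its reverse form from 171 to 166 bases before the start. AGGTCA was found in 14.1% of all windows, and TATAAA in 12.9%. The windows of Avp, Avpr1a, Oxtr and Crhr2 each held 1 TGACG core, Avpr1a also a TATAAA, and that of Crhr1 none of these motifs. In the Crhbp window there was 1 half-site and 1 TGACG core. Neither the oestrogen response element GGTCANNNTGACC nor the glucocorticoid response element of the form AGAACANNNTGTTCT was found in any window searched for these genes. The 2 forms were also rare elsewhere, in 0.0239% and 0.012% of all windows. These matches describe letters and show no binding. The windows of Oxtr and Crhr2 begin inside the longest annotated gene, so they are not printed.

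Values are scaled signals, the processed spot intensity set so that 100 is each array's 75th percentile. Each is followed by the error that the scanner software gives the spot, which covers the spot and not the animals, the pools or the labelling. The error of a difference on the log2 scale was combined from the errors of both spots. Each of the 11 probes had 1 spot, none was saturated and none carried an outlier flag of the spot itself. The local background of 1 spot, that of Crhr2 probe A_64_P079538 in the male pool, was flagged as an outlier by the scanner software. Probes differ in how strongly they bind, so levels are compared between the arrays and never between genes. Of the 11 probes, 10 were well above background on both arrays.

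Facts of the arrays as a whole bear on these values. Of 58717 spots outside the controls, 80.1% for the male pool and 82.3% for the female pool were well above background. The Y-linked gene Eif2s3y read 22.4 in the male pool and stayed under the background limit in the female pool, a signal lower by at least 65.0-fold. Of 2 probes of the Y-linked gene Ddx3y, one read 6.94 in the male pool and was not well above background in the female pool, while the other read 24.3 and 10.2 and was well above background in both. The dorsal medulla neuron markers Th and Dbh, which encode enzymes of noradrenaline synthesis, read 602 and 399 in the male pool and 532 and 381 in the female pool. All 8 markers of that list with a named probe were measured, with a median difference of 0.03 on the log2 scale and a range from -0.53 (Gcg) to 0.41 (Prlh). Of 14 choroid plexus markers 13 were measured and all 13 were higher on the female array, by a median of 1.30. Their summed scaled signal was 882 in the male pool and 10010 in the female pool, of which Ttr alone gave 617 and 9325.

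Among the ligand genes, Avp, Oxt and Crh gave nearly the same signal in both pools, and Ucn was lower in the female pool. Among the receptor genes, Oxtr was lower in the female pool, Avpr1a differed little, and the probes of Crhr1 and of Crhr2 disagreed within each gene. Only Ucn and Oxtr differed by at least 1.5-fold as genes, both lower on the female array, so 2 of 8 genes passed that fold in that direction against 0.797% of the 13428 named genes measured on both arrays. No gene of the 8 passed that fold with the female pool higher, against 1.5% of all genes. Both Ucn and Oxtr were dim, and the next paragraphs give their values.

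**Figure D1:**
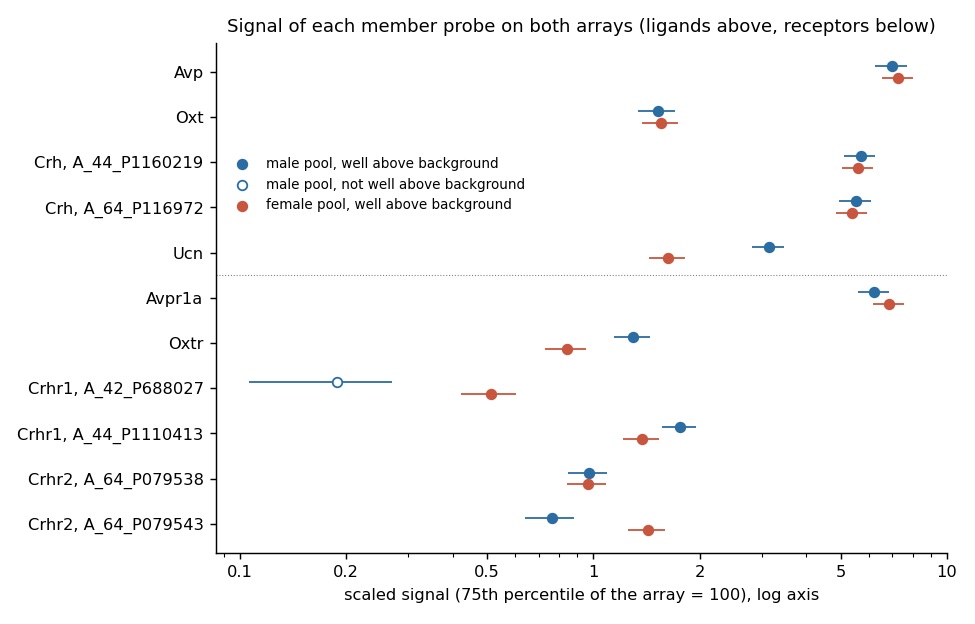
Scaled signal of each of the 11 probes on the male (blue) and female (red) array, on a log axis, with bars for the error of the spot and an open circle for a spot not well above background. Ucn and Oxtr stand lower on the female array, 1 Crhr2 probe stands higher there, and Avp, Oxt and Crh overlap.

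Avp, which encodes arginine vasopressin together with its carrier protein neurophysin, read 6.98 ± 0.70 in the male pool and 7.26 ± 0.73 in the female pool. The ranges of the 2 spots overlapped. The difference, female minus male, was 0.06 ± 0.21 on the log2 scale, a 1.04-fold difference.

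Oxt, which encodes oxytocin with its own neurophysin, read 1.52 ± 0.18 in the male pool and 1.55 ± 0.18 in the female pool. The spots overlapped almost fully, and the difference was 0.03 ± 0.24, or 1.02-fold. Before correction its spot had a median brightness of 68 on both arrays, over a local background of 34 and 35, so it stood little above its surroundings. The coding regions of the neurophysins of Oxt and Avp are closely alike in sequence, and how far 1 probe may read the transcript of the other was not tested.

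Crh had 2 probes. The first read 5.70 ± 0.58 in the male pool and 5.62 ± 0.57 in the female pool, and the second 5.52 ± 0.56 and 5.40 ± 0.54. Both probes overlapped between the arrays and differed in the same direction, by -0.02 and -0.03 on the log2 scale. As a gene Crh differed by -0.03 ± 0.15, or 1.02-fold, and 81.5% of all measured genes had a larger difference in size.

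Ucn, which encodes urocortin, read 3.14 ± 0.33 in the male pool and 1.63 ± 0.19 in the female pool. The spots did not overlap. Before correction its spot had a median brightness of 95 over a background of 41 in the male pool, and of 66 over 40 in the female pool, so the backgrounds were alike and the spots were not. The difference was -0.95 ± 0.22 on the log2 scale, a 1.93-fold lower signal on the female array. Of 13428 genes, 23 had a lower value of the difference than Ucn. In the dimmest 25% of genes by mean signal, to which Ucn belongs, 6.97% of genes were past 1.5-fold in either direction and 1.97% in the direction of Ucn. With normexp background correction of each spot's median brightness the difference was -0.45, and without background correction -0.56, both below 1.5-fold and both still lower on the female array.

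Urocortin has been described in cranial motor neurons as well as in the Edinger-Westphal nucleus. All 6 motor neuron markers measured were lower on the female array, with a median difference of -0.24 on the log2 scale and a range from -1.31 to -0.03. Calca, the calcitonin gene-related peptide gene, gave the lowest value and was the one marker of the list past 1.5-fold. The summed scaled signal of the list was 616 in the male pool and 525 in the female pool, of which Prph alone gave 463 and 409. All 4 blood markers measured were also at least 1.5-fold lower on the female array, with a median of -0.84. The 4 oligodendrocyte markers and the 4 microglia markers were lower too, none past 1.5-fold, with medians of -0.23 and -0.12. Neuron, astrocyte and pituitary markers had medians of -0.04, -0.07 and -0.02. The meninges markers had a median of 0.26, with 5 of 6 higher on the female array, and ranged from -0.76 (Col1a2) to 1.17. Their summed scaled signal was 535 in the male pool and 372 in the female pool, of which Col1a2 alone gave 469 and 276. The inferior olive and cerebellum markers had a median of 0.14, a range from -0.19 to 1.03 and summed signals of 82.3 and 82.0. After centring on spike-in controls 5 of the 6 motor neuron, 4 of the 4 blood, 3 of the 4 oligodendrocyte and 2 of the 4 microglia markers were lower, and with normexp correction 3 of the 4 microglia markers. The part of these lists in the Ucn difference was not tested, and fewer cells of a type and less RNA per cell cannot be told apart in tissue RNA.

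Avpr1a, the gene of the V1a vasopressin receptor, read 6.22 ± 0.63 in the male pool and 6.84 ± 0.69 in the female pool. The spots overlapped, and the difference was 0.14 ± 0.21 on the log2 scale. The ligand gene Avp had differed by 0.06, so neither gene of the vasopressin pair was past 1.5-fold.

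Oxtr, the gene of the oxytocin receptor, read 1.30 ± 0.15 in the male pool and 0.84 ± 0.11 in the female pool. The spots did not overlap, although both were faint. The median brightness of the spot was 64 over a background of 41 in the male pool and 55 over 38 in the female pool. The difference was -0.62 ± 0.26 on the log2 scale, a 1.54-fold lower signal on the female array, and 94 of 13428 genes had a lower value of the difference. It was -0.17 with normexp correction, -0.25 without background correction and -0.53 after centring on spike-in controls, all short of 1.5-fold. The oxytocin gene itself differed by 0.03, by -0.08 with normexp correction and by -0.04 without background correction.

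**Figure D2:**
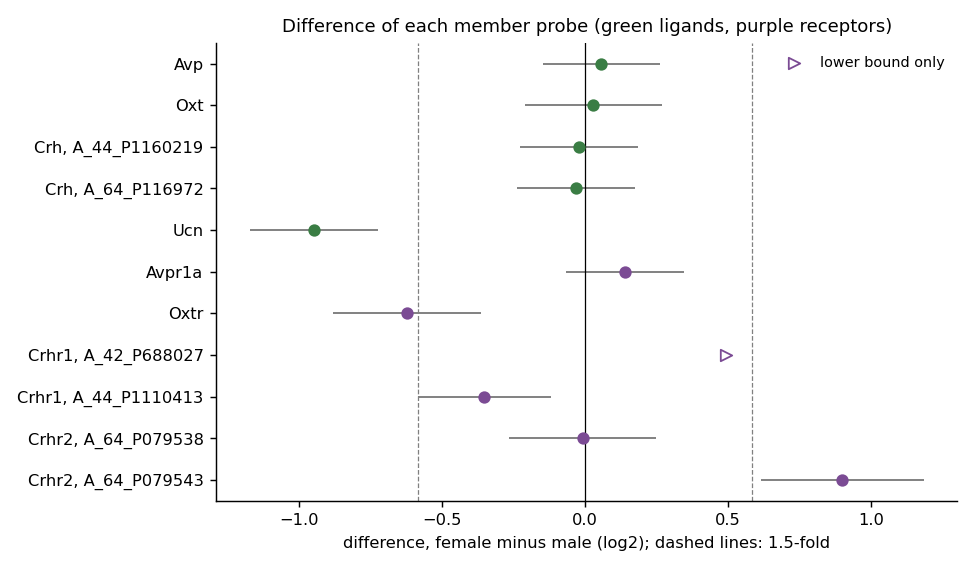
Difference of each probe, female minus male, on the log2 scale, with the combined error of both spots as bars, a triangle for a lower bound, and dashed lines at 1.5-fold. The ligand probes lie near 0 except Ucn at -0.95, and the receptor probes spread to both sides, with Oxtr at -0.62 and the second Crhr2 probe at 0.90.

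Crhr1, the gene of the CRH receptor that binds CRH most strongly, had 2 probes that did not agree. Probe A_44_P1110413 read 1.76 ± 0.20 in the male pool and 1.38 ± 0.16 in the female pool, a difference of -0.35 ± 0.23, or 1.28-fold lower on the female array. Probe A_42_P688027 did not stand well above background in the male pool, at 0.19 ± 0.08, and read 0.51 ± 0.09 in the female pool. Set against the lowest signal well above background on the male array, 0.37, this probe was higher in the female pool by at least 1.41-fold. With that probe taken at its bound, the mean of both was at least 0.07 on the log2 scale for the processed signal. With normexp correction the first probe differed by -0.12, and without background correction by -0.16. Probe A_42_P688027 differed by 0.08, or 1.06-fold, with normexp correction and by 0.26, or 1.20-fold, without background correction. Both are short of 1.41-fold, so that bound and the 0.07 hold for the processed signal only. The 2 probes carry the same transcript accession, and where on the transcript they lie was not analysed here.

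Crhr2, the gene of the receptor that binds urocortin and its relatives, also had 2 probes, and both were measured. Probe A_64_P079538 read 0.97 ± 0.12 in the male pool and 0.96 ± 0.12 in the female pool, a difference of -0.01 ± 0.26. Its male spot is the one with the flagged background, 46 against 45 in the female pool, and it was kept. Probe A_64_P079543 read 0.76 ± 0.12 in the male pool and 1.42 ± 0.17 in the female pool, where its spot had a median brightness of 66 against 52.5, both over a background of 38. The spots of the first probe overlapped and those of the second did not. The second probe differed by 0.90 ± 0.28, or 1.87-fold higher on the female array, and 1.57% of the 17203 measured probes of named genes were past 1.5-fold in that direction. In the dimmest 25% of genes by mean signal the share of genes in that direction was 5%. The gap between both probes was 0.91 on the log2 scale. Over 2491 genes with 2 measured probes the median gap was 0.10, and 21 genes had a larger gap than Crhr2. Those genes were of every brightness, and no set of like signal was used. The SD of the difference over genes was 0.36 in the dimmest 25%, to which Crhr2 belongs, and 0.13 in the brightest 25%. As the mean of its probes Crhr2 differed by 0.45 ± 0.19, or 1.36-fold. With normexp correction the second probe differed by 0.16 and the first by 0.01.

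In the rat, 1 form of the Crhr2 transcript is known from the choroid plexus and another from neurons. The choroid plexus markers were higher on the array on which the second Crhr2 probe was higher. Of the 13 measured, 12 were past 1.5-fold in that direction, and Ttr, the thyroxine carrier of cerebrospinal fluid, read 617 in the male pool and 9325 in the female pool. The part of choroid plexus tissue in the Crhr2 value was not tested.

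As groups, the 4 ligand genes had a median difference of 0.00 on the log2 scale and a range from -0.95 to 0.06. The 4 receptor genes had a median of -0.11 and a range from -0.62 to 0.45. In these values Crhr1 stands for 1 of its 2 probes, and Crhr2 for the mean of 2 probes that disagreed. With the dim Crhr1 probe added at its bound, the receptor median was at least 0.10. Over all 13428 measured genes the median was 0.02. In the reported setting 2 genes of each group were higher and 2 lower on the female array, and 1 gene of each was at least 1.5-fold lower there. The signs of the small differences of Avp, Oxt and Crh turned under at least 1 other setting. For the processed signal, that of Crhr1 turned when its dim probe was added at its bound. Set side by side, the vasopressin pair Avp and Avpr1a differed by 0.06 and 0.14, the oxytocin pair Oxt and Oxtr by 0.03 and -0.62, the CRH pair Crh and Crhr1 by -0.03 and -0.35, and the urocortin pair Ucn and Crhr2 by -0.95 and 0.45. No pair held 2 genes past 1.5-fold.

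**Figure D3:**
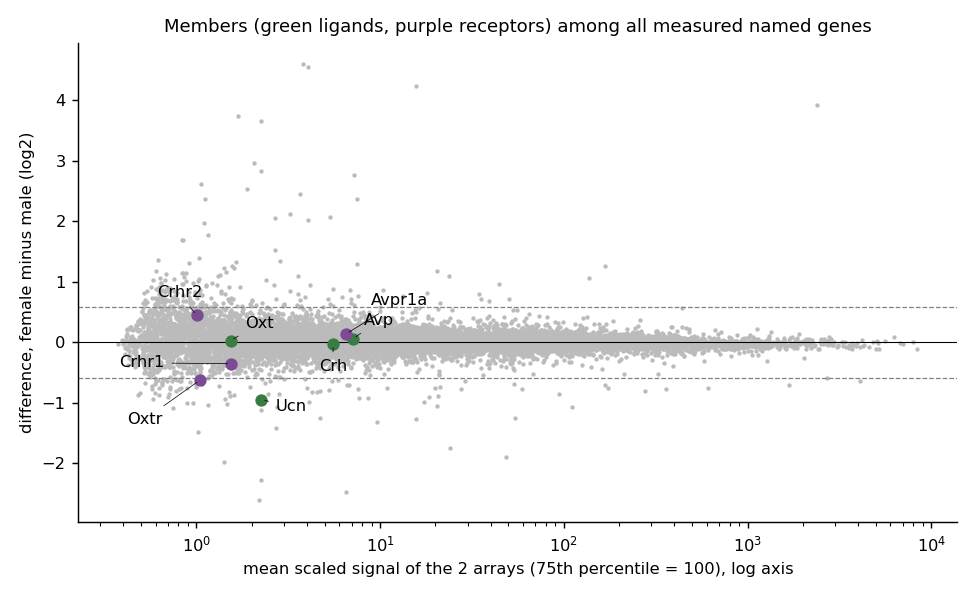
Difference, female minus male, of each measured named gene (grey) against its mean scaled signal on a log axis, with ligand genes in green, receptor genes in purple and dashed lines at 1.5-fold. All 8 genes lie in the dimmer part of the signal range, and Ucn at -0.95 and Oxtr at -0.62 lie below the lower line.

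The brightness of the genes sets how firmly these differences can be read. Oxt, Ucn, Oxtr, Crhr1 and Crhr2 were in the dimmest 25% of genes by mean signal, where the SD of the difference over genes was 0.36 on the log2 scale. Avp, Crh and Avpr1a were in the next 25%, where it was 0.20 and 1.1% of genes were past 1.5-fold. None of the 8 lay above the median signal of all genes.

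Other genes of these pathways were taken from a list by role, which shared no gene with the 8. Of the 53 listed, 48 were measured, of which 1 passed 1.5-fold with the female pool lower and none with it higher. That is 2.08% of the 48 in either direction, close to the 2.29% of all genes past that fold. The median difference of the 48 was 0.00 on the log2 scale. The 1 gene was Crhbp, whose product binds CRH and urocortin and keeps them from their receptors. It read 2.53 ± 0.27 in the male pool and 1.52 ± 0.17 in the female pool, and the spots did not overlap. The difference was -0.74 ± 0.22, a 1.67-fold lower signal on the female array, from a median brightness of 98 in the male pool and 71.5 in the female pool over a background of 39 on both. It was -0.41 with normexp correction and -0.49 without background correction. Like Ucn, Oxtr and Crhbp were lower on the array on which the motor neuron, blood, oligodendrocyte and microglia markers were lower. In the reported setting 4 of 5 neuron and 3 of 4 astrocyte markers were lower there too, with medians of -0.04 and -0.07. The choroid plexus list had a median of 1.30, with all 13 measured markers higher on the female array. The meninges list was mixed, with a median of 0.26 and a range from -0.76 (Col1a2) to 1.17. Its summed scaled signal was 535 in the male pool and 372 in the female pool. The part of any of these cells in the values of Oxtr and Crhbp was not tested.

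The other peptide and receptor genes of the family did not differ by that much. Avpr1b, the gene of the pituitary vasopressin receptor, differed by -0.04 as the mean of 2 probes. Avpr2, the gene of the kidney vasopressin receptor, read 2.17 in the male pool and 2.18 in the female pool, a difference of 0.00. Ucn2, which encodes urocortin 2, had 2 probes at -0.10 and 0.20 and a mean of 0.05, while the probe of Ucn3 was not well above background on either array.

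Genes that make or break down the peptides lay close to 0, from -0.05 to 0.07 over 5 measured. Cpe, the carboxypeptidase that trims prohormones, differed by -0.01, Pam, which amidates peptide ends, by -0.01, and the prohormone convertase gene Pcsk2 by 0.07. Of the 6 transcription factor genes and partners of hypothalamic neurons that make these peptides, 5 were measured and ranged from -0.08 to 0.14. The coactivator gene Crtc2 differed by 0.01, Arnt2 by 0.09 and Pou3f2 by -0.08, while Sim1 had no probe well above background on both arrays. Of 8 hypothalamic neuron markers 7 were measured, with a median of 0.03 and a range from -0.03 to 0.49. Their summed scaled signal was 32.2 in the male pool and 34.8 in the female pool, of which Hcrt alone gave 17.3 and 18.8.

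Downstream of the receptors, the 9 measured genes of the Gq and phospholipase C arm ranged from -0.04 to 0.25, with a median of 0.04. The kinase gene Prkcb differed by 0.02, the calcium release channel gene Itpr1 by 0.20 and the phospholipase gene Plcb4 by 0.04. The 11 measured genes of the Gs and cyclic AMP arm ranged from -0.16 to 0.22, with a median of 0.02. Prkaca, a catalytic subunit of protein kinase A, differed by 0.00, Gnas, the Gs alpha subunit gene, by -0.16, and the regulatory subunit gene Prkar1a by -0.04. The 8 measured genes of receptor desensitisation ranged from -0.09 to 0.20, with Rgs2 at -0.09, the arrestin gene Arrb2 at 0.00 and Rgs4 at 0.01.

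Of the corticosteroid feedback genes 5 were measured, from -0.19 to 0.30. Fkbp5, which the glucocorticoid receptor induces, differed by 0.23, the precursor gene Pomc by -0.15 and Hsd11b1, which regenerates active glucocorticoid, by -0.19. Cd38, whose product supports oxytocin release, differed by -0.23. None of the genes in these roles was past 1.5-fold.

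**Figure D4:**
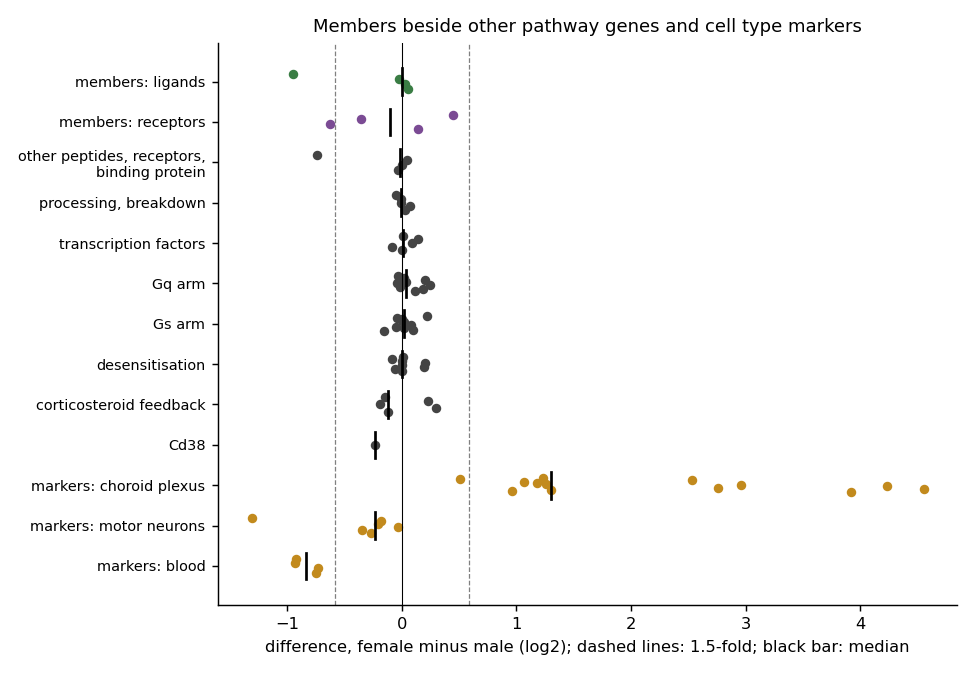
Difference, female minus male, on the log2 scale of the 8 genes (green and purple), of the other pathway genes by role (dark grey) and of 3 marker lists (ochre), with black bars for medians and dashed lines at 1.5-fold. Apart from Ucn, Oxtr and Crhbp on the left the genes of the pathways lie within 1.5-fold, while the choroid plexus markers lie to the right, at a median of 1.30.

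**Figure D5:**
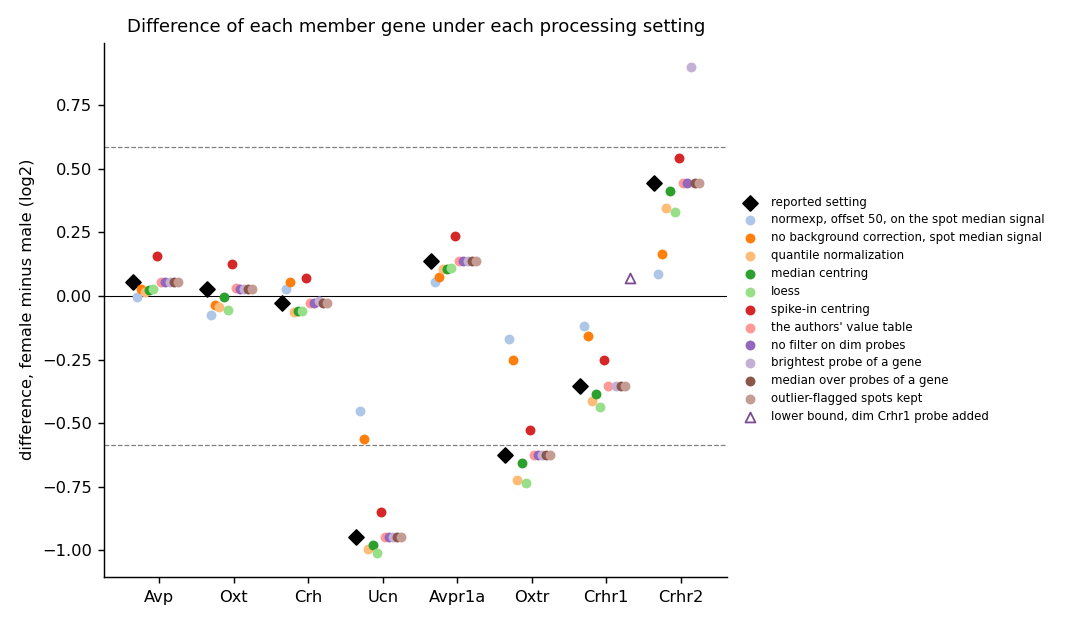
Difference of each of the 8 genes, female minus male, on the log2 scale under the reported setting (black diamond) and under each other setting with a measured value (circles), with dashed lines at 1.5-fold. Ucn and Oxtr stay below 0 in each, Ucn between -1.01 and -0.45 and Oxtr between -0.74 and -0.17, and Crhr1 between -0.44 and -0.12 from its measured probe. The triangle is the lower bound of 0.07 for Crhr1 with its dim probe added, which holds for the processed signal only.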

How the data were processed

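Gene expression was read on 2 one-colour Agilent arrays, 1 for each sex, each hybridised with the pooled RNA of 5 rats. The deposited spot values are linear intensity values from Agilent Feature Extraction, with the processed signal already background-corrected (version 11.5.1.1 per the file headers, 9.1 per the submitters' processing notes). The authors' value table equals this processed intensity divided by a constant of 22.8 (male pool) or 23.4 (female pool). Probes were named by matching transcript accessions, without versions, to RefSeq genes of GRCr8, which named 21109 of 45598 probes. Spots flagged as outliers were left out, while a flag on the local background alone left a spot in. Signals were put on a log2 scale, minus the 75th percentile of each array, and a gene was the mean of its probes well above background on both arrays. There was no test, since each sex had 1 array, and genes were counted past 1.5-fold. A bound ("at least") was set against the lowest signal well above background.

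The 8 genes, the pathway and marker lists and the naming rule (all 8 genes, pathway genes past 1.5-fold, the other peptide and receptor genes, and up to 3 of the brightest per role) were chosen with earlier results of these data known. Normexp used the spot's median signal with an offset of 50, in limma 3.58.1 (R 4.3.3). The rest was computed in Python 3.11.15 with pandas 2.3.3, and the steps were tested on simulated data.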

Additional observations from a re-analysis of the deposited data

How the results depend on the processing

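The count of 2 genes of the 8 at least 1.5-fold lower on the female array was 0 with normexp correction, 0 without background correction, 1 (Ucn) after centring on spike-in controls and 0 at 2-fold. With the brightest probe of each gene, 1 gene of the 8, Crhr2 at 0.90 on the log2 scale, was at least 1.5-fold higher. The median of the receptor genes was 0.29 with no filter on dim probes, a value that uses a Crhr1 spot not well above background, and at least 0.10 with that probe at its bound. Among the other pathway genes, Crhbp was below 1.5-fold with normexp correction and without background correction, was short of the 2-fold limit, and was too dim for the brighter probes, a count of 0 each. With no filter, which lets in spots not well above background, 2 genes were higher. In the 6 settings that change the background correction or the scaling, Ucn and Oxtr stayed lower and were past 1.5-fold in 4 and 3 of them, while Avp kept its sign in 5, Crh in 3 and Oxt in 1. The other settings with a value could not change genes with 1 probe. All 8 genes were too dim for the setting of brighter probes only.

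Over all genes, 107 lower and 201 higher on the female array became 33 and 37 with normexp, 38 and 50 without background correction, 157 and 137 after quantile normalization, 152 and 141 after loess, 78 and 303 after spike-in centring, 513 and 1134 with no filter, 25 and 14 for brighter probes only and 20 and 54 at 2-fold. Spike-in centring moved the median of all genes from 0.02 to 0.11. It, the setting without background correction and the bound for Crhr1 were chosen after seeing the data. Settings on each spot's mean signal were not run, as the files used here hold its median. No paired analysis was possible because there is 1 array for a sex. These genes were faint, with none above the median signal of all genes. Where well above background, the signals of their spots were 5.65 to 9.95 times the spot error.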
